A study of Mus musculus with 6 samples.

Results

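Glycolysis, the pentose phosphate pathway and the citrate cycle were followed through 36 listed genes, the transporters, enzymes and a regulatory kinase that carry glucose carbon from the cell surface to the mitochondrion. They were compared between regulatory T (Treg) cells of the pancreas and of the spleen. A gene was measured where a probe set, the group of array probes summarised into a single value, was annotated to that gene alone, which held for 32 of the 36 listed genes among 19752 genes in all. Gpi1, Eno1 and G6pdx are not analysed here, and Gapdh had only probe sets that name further genes. The cells came from 10-week-old female NOD mice, a strain with spontaneous autoimmune diabetes, before the onset of diabetes. All animals of both groups carried a reporter that links green fluorescent protein to Foxp3, on a background given in the labels as NOD NRB_SFB+. Cells were sorted by flow cytometry as DAPI-negative, CD45+, TCRb+, CD4+ and GFP+. There were 3 pancreas and 3 spleen arrays of the Affymetrix Mouse Gene 1.0 ST type. The labels do not say whether an array came from a single mouse or a pool, so a p-value here speaks only of array-to-array spread, which may be technical.

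In glycolysis, glucose enters the cell through Slc2a transporters, is phosphorylated by hexokinase, committed by phosphofructokinase and split by aldolase into triose phosphates, which the lower enzymes turn into pyruvate. Pyruvate is either reduced to lactate and exported, or fed by pyruvate dehydrogenase into the citrate cycle. The pentose phosphate pathway branches off at glucose 6-phosphate to make NADPH and ribose for nucleotides. Activated and dividing T cells are known for high aerobic glycolysis, and Foxp3+ Treg cells for a greater reliance on mitochondrial oxidation.

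The sorted cells carried the markers of their label. Of the genes of the sort gate and of T cell identity 13 were measured, Foxp3 and Cd4 among them, and they had summed intensities of 38360 to 41353 in pancreas and 37492 to 44217 in spleen, and 0 passed the test in either direction. On the same arrays markers of pancreatic acinar cells stood higher in pancreas in 14 of 16 genes, with summed intensities of 16320 to 34151 against 1252 to 3242. Of the B cell markers 1 of 11 passed and all 11 had a higher mean in pancreas, with sums of 1051 to 2207 against 792 to 888. Of the macrophage and dendritic cell markers 1 of 15 passed and 10 had a higher mean, with sums of 1079 to 1240 against 760 to 888. Of these 15, 10 were below background on all arrays. Cell cycle genes were called higher in 10 of 26, with sums of 15091 to 16785 against 6744 to 9287. Every cell type expresses glycolytic genes, and the part of these other signals in the values below was not tested. The width of the intensity distribution differed between arrays within each tissue. The interquartile range over all genes was 2.96, 2.63 and 2.10 on the log2 scale on pancreas arrays 1 to 3 and 2.38, 2.69 and 2.90 on spleen arrays 1 to 3.

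None of the 32 measured genes passed the test of a tissue difference: 0 were called higher and 0 lower in pancreas (limma, Benjamini-Hochberg over 19752 genes, threshold 0.05), where 0.547% and 0.132% of all genes were (0.678% in either direction). At an unadjusted p under 0.05, 5 of 32 (15.6%) were higher in pancreas, against 3.20% of all genes, and 0 were lower, against 3.64% (6.84% in either direction). These 5 were Tpi1, Pgk1, Aldoa, Slc16a3 and Idh3a. The shares over all genes were not matched for level. Of the 32 genes, 31 were above background on all arrays, while 11698 of the 19752 genes had a mean above it. The log2 fold changes of the 32 genes, pancreas minus spleen, ran from -0.33 for Ldhb to 0.61 for Tpi1. Their median was 0.14, against -0.001 over all genes. The 95% intervals had a median half-width of 0.45, and for 31 of 32 genes they lay within 2-fold in either direction. The exception was Pkm, whose upper bound was 2.11-fold. In RNA from sorted populations, fewer cells with high expression and less RNA per cell cannot be told apart.

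The count of 5 changed with each array left out. It was 1, Tpi1 alone, without pancreas array 2, without spleen array 1 or without spleen array 2. Each of these fits also has 1 array fewer, so the count can change where fold changes barely move. Without spleen array 2, Idh3a was at 0.49, Slc16a3 at 0.52, Pgk1 at 0.43 and Aldoa at 0.41. With all arrays they were at 0.48, 0.49, 0.50 and 0.46. The count was 2 without pancreas array 1, when Pgam1 joined Tpi1 and Pdha1 was lower. It was 8 without pancreas array 3 and 6 without spleen array 3. Tpi1 was in the count in all 6 of these fits. The median of 0.14 became -0.01 without spleen array 1. The adjusted test called 0 of the 32 in each of the 6, with a smallest adjusted p of 0.0887. It called 4, all higher, in a fit chosen after seeing the data that had the interquartile range of each array as a covariate. These were Tpi1 (adjusted p = 0.0321), Slc16a3 (0.0360), Pgk1 (0.0412) and Idh3a (0.0452), and 1.86% of all genes were called higher and 0.891% lower in that fit. With array weights 17 were called higher, where 19.3% of all genes were. The estimation of those weights stopped before it converged and gave weights of 9.50 and 5.69 to pancreas array 2 and spleen array 2, against 0.236 to 0.650 for the others.

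**Figure D1:**
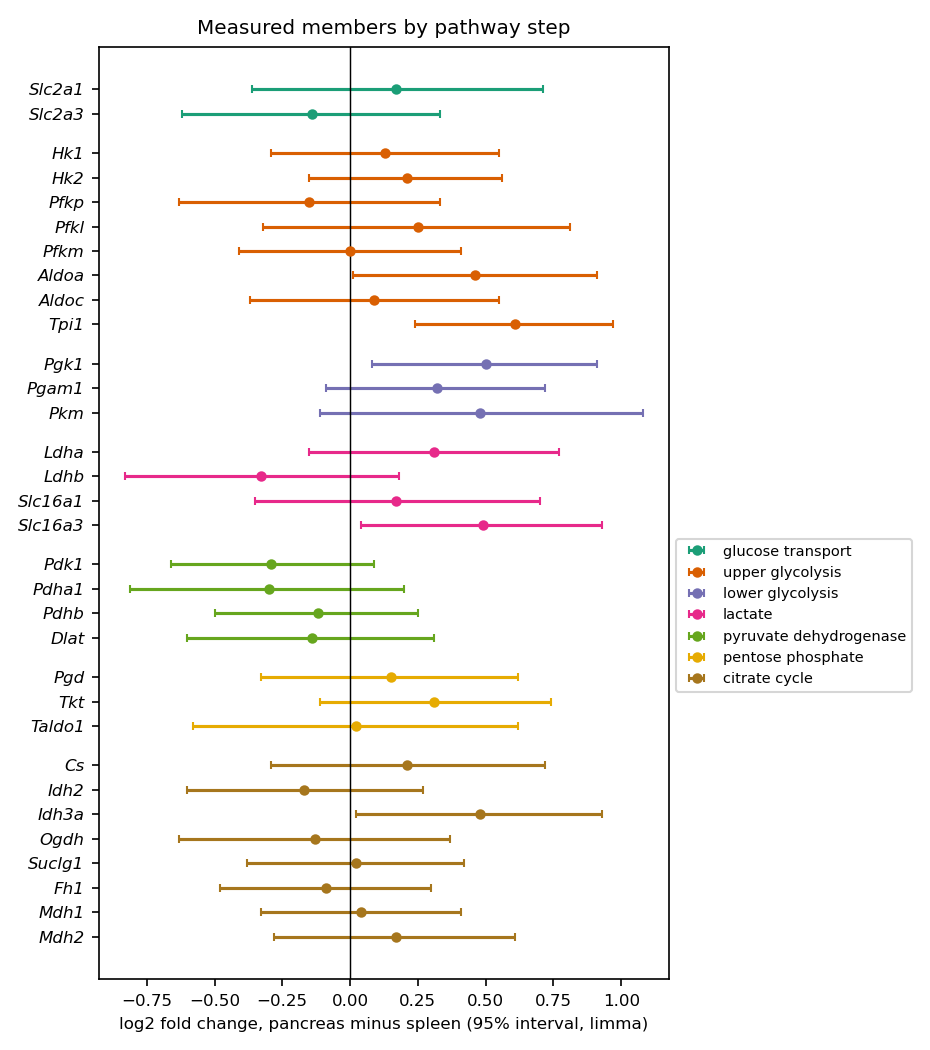
Log2 fold change of each of the 32 measured genes (x axis, pancreas minus spleen), with the 95% interval of the limma fit, grouped and coloured by pathway step. The points lie between -0.33 and 0.61, and the intervals of Aldoa, Tpi1, Pgk1, Slc16a3 and Idh3a lie above 0.

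Levels of the 32 genes varied together from array to array within a tissue. Pancreas array 3 was the lowest of the pancreas arrays for 30 of 32 genes (93.8%), and spleen array 1 the lowest of the spleen arrays for 23 of 32 (71.9%). Over the 11698 genes with a mean above background, an intensity of 63.9, these shares were 62.4% and 49.1%. Spleen array 3 was the highest of the spleen arrays for 26 of 32 (81.2%, against 42.2%). These shares were not matched for level. The 32 genes had median log2 intensities of 8.0 to 8.66 per array, against 6.35 to 6.47 over all genes. The mean deviation of the 32 genes from their 6-array means was 0.20, 0.21 and -0.24 on pancreas arrays 1 to 3 and -0.26, -0.08 and 0.16 on spleen arrays 1 to 3. The low arrays, pancreas 3 and spleen 1, were those with the narrowest distributions. For 30 of the 32 genes the range within a tissue exceeded the difference between the tissue means.

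**Figure D2:**
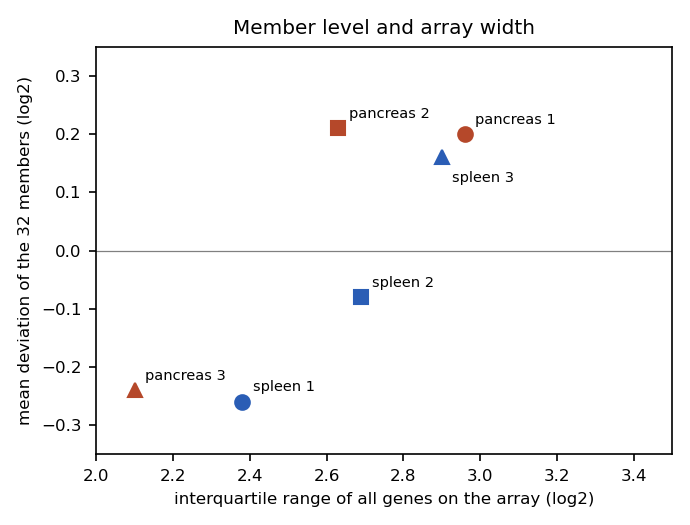
Mean deviation of the 32 genes from their 6-array means (y axis, log2) against the interquartile range of all genes on the array (x axis, log2), with 1 point for each of the 6 arrays. Pancreas array 3 and spleen array 1, the narrowest arrays, are at -0.24 and -0.26, and the widest, pancreas array 1 and spleen array 3, at 0.20 and 0.16.

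Both glucose transporter genes differed between tissues by less than the range within a tissue. Slc2a1, which encodes the ubiquitous transporter GLUT1 that T cells induce on activation, had log2 intensities of 9.43, 9.67 and 8.99 in pancreas and 8.75, 9.28 and 9.54 in spleen. The tissues overlapped across nearly the whole range, with a log2 fold change of 0.17 ± 0.24 SE (95% interval -0.36 to 0.71). Slc2a3, which encodes the high-affinity transporter GLUT3, was at -0.14 (95% interval -0.62 to 0.33). Without spleen array 1 the value of Slc2a1 turned to -0.05.

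Among the upper glycolytic enzymes, 7 of the 8 measured had a higher mean in pancreas, Hk2 included, by 0.00 to 0.61. Hexokinase 2, the inducible enzyme of activated lymphocytes encoded by Hk2, was below background on all 6 arrays, with log2 intensities of 5.48, 5.70 and 5.65 in pancreas and 5.50, 5.30 and 5.41 in spleen, so no fold is given. The constitutive hexokinase gene Hk1 was above background and at 0.13 (95% interval -0.29 to 0.55). Phosphofructokinase, the committing step, is encoded by Pfkp, Pfkl and Pfkm. Pfkp, the platelet-type subunit, was the exception to the direction of the step, at 8.78, 8.53 and 8.03 in pancreas and 8.42, 8.53 and 8.84 in spleen. Its log2 fold change was -0.15 (95% interval -0.63 to 0.33), and the tissues overlapped. Pfkl, the liver-type subunit, was at 0.25 and Pfkm, the muscle-type subunit, at 0.00.

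The triose end of upper glycolysis held the largest differences. Aldoa, the main aldolase gene outside liver and brain, was at 10.67, 10.76 and 10.43 in pancreas and 9.86, 10.08 and 10.55 in spleen. Spleen array 3 reached into the pancreas range, and the log2 fold change was 0.46 ± 0.20 SE (limma adjusted p = 0.723). Its brain-type relative Aldoc was at 0.09. Tpi1 encodes triose phosphate isomerase, which interconverts the products of aldolase, and was at 9.16, 9.44 and 9.08 in pancreas and 8.61, 8.60 and 8.66 in spleen. All 3 pancreas arrays lay above all 3 spleen arrays. It was the only one of the 32 measured genes with this pattern, where 4.57% of all genes had it and 10.4% did not overlap in either direction. The difference was 1.52-fold (95% interval 1.18 to 1.96, log2 fold change 0.61 ± 0.16 SE, limma adjusted p = 0.197), and its p ranked 375 among 19752 genes. With each array left out it stayed between 0.50 and 0.68, with adjusted p from 0.0887 to 0.941.

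All 3 measured lower glycolytic enzymes had higher means in pancreas. Pgk1, phosphoglycerate kinase and the first ATP-yielding step of the pathway, was at 9.68, 9.55 and 9.26 in pancreas and 8.87, 8.86 and 9.27 in spleen. Pancreas array 3 and spleen array 3 met at nearly the same level, and the log2 fold change was 0.50 ± 0.19 SE (limma adjusted p = 0.536). A second probe set annotated to Pgk1 gave a difference of 0.48. Pgam1, phosphoglycerate mutase, was at 0.32 and 0.35 by its 2 probe sets, and Pkm, the pyruvate kinase gene of proliferating cells, at 0.48 (95% interval -0.11 to 1.08). Pgk1 and Pgam1 have near-identical copies in the genome, so their probe sets may share signal with these.

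Gapdh, glyceraldehyde 3-phosphate dehydrogenase, was represented by 19 probe sets that together name 7 further genes, 6 of them predicted genes with Gm symbols. Over these the log2 intensity ran from 12.89 to 13.33, 12.95 to 13.31 and 12.84 to 13.24 on pancreas arrays 1 to 3, and from 12.17 to 12.79, 12.65 to 13.18 and 12.74 to 13.18 on spleen arrays 1 to 3. In all 19 the 3 pancreas arrays lay above the 3 spleen arrays, by 0.23 to 0.41 (median 0.35). Of the 19752 genes with a probe set of their own, 4.57% had this pattern. Since the 19 probe sets share these names they are no separate observations, and the difference was not tested.

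**Figure D3:**
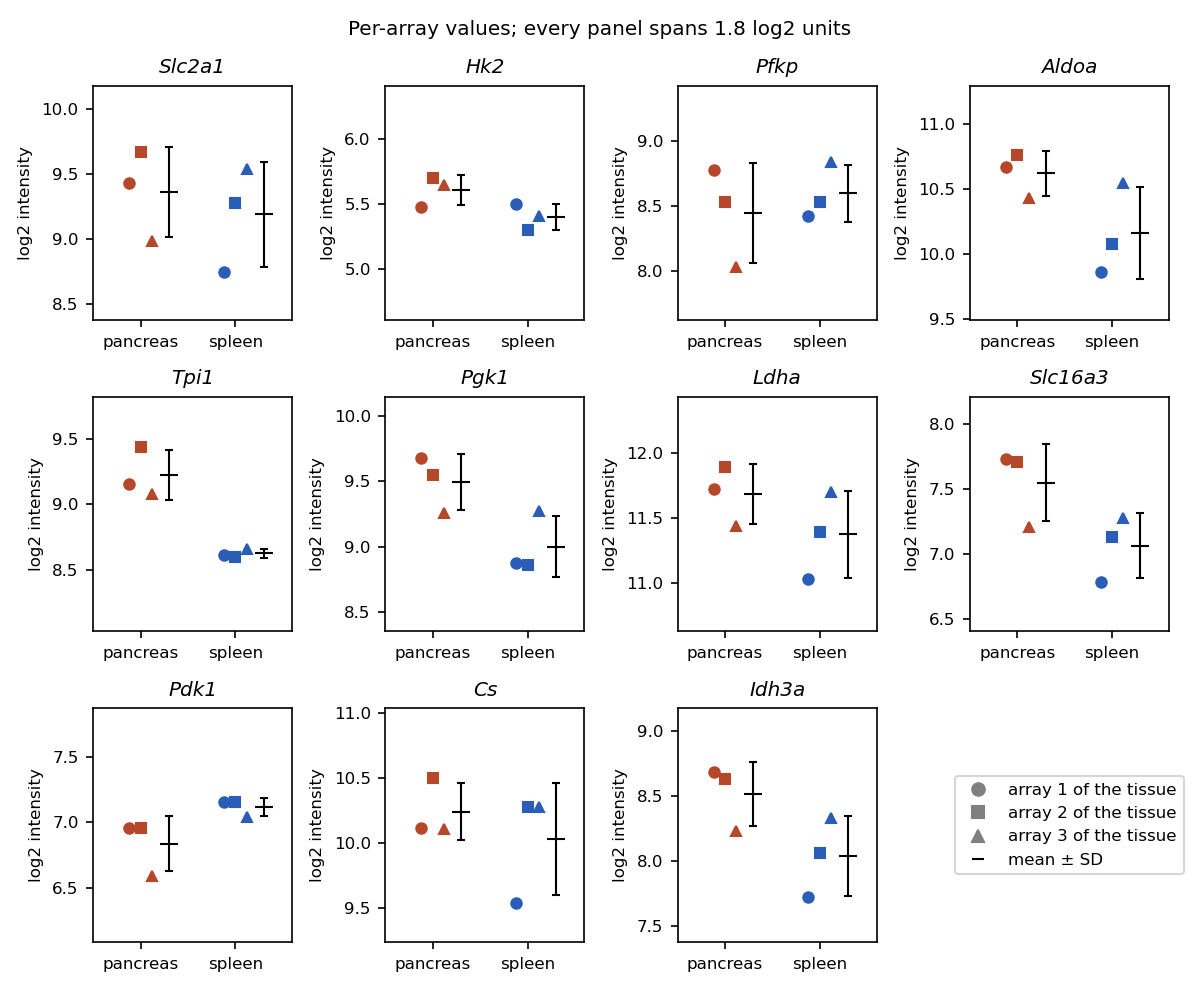
Log2 intensity of 11 genes on each of the 6 arrays (points, with circle, square and triangle for arrays 1, 2 and 3 of a tissue) with the mean ± SD of 3 arrays, each panel spanning the same height. The pancreas points lie above all spleen points for Tpi1 and below them for Pdk1, and overlap with them or meet them in the other 9 panels.

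The promoters of the 3 genes with the smallest p are shown because glycolytic genes are textbook targets of hypoxia-inducible factor and Myc. Capitals mark ACGTG or GCGTG on either strand, the core letters of the hypoxia response element, or CACGTG, the E-box, which contains ACGTG. Each run is the 250 bases before a RefSeq transcription start, 5′ to 3′ on the strand of the gene (GRCm38.p6). Tpi1 lies at chr6:124814159-124814408 (minus strand), Pgk1 at chrX:106186850-106187099 (plus strand) and Slc16a3 at chr11:120948817-120949066 (plus strand).
Tpi1: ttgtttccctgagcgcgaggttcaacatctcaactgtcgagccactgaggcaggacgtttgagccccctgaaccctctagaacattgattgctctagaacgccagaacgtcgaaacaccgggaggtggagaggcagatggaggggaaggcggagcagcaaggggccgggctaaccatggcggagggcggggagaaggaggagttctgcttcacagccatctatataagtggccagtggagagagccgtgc
Pgk1: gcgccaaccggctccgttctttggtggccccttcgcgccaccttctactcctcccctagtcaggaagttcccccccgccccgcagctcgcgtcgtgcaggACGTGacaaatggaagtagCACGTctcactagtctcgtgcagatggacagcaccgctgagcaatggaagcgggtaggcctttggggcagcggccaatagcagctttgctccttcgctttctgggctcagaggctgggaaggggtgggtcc
Slc16a3: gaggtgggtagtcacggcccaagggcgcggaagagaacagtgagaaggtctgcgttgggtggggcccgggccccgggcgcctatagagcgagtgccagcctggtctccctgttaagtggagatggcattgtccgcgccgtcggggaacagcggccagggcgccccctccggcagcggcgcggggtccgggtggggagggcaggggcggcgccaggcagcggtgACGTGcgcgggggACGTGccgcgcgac

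The Pgk1 window held 2 ACGTG matches on opposite strands, starting 150 and 131 bases before the transcription start, and the Slc16a3 window 2 on the same strand, 27 and 14 bases before it. The Tpi1 window held none of the 3 motifs. Of the 46 windows of the 30 measured members found in the promoter table, 37 (80.4%) held ACGTG or GCGTG, against 38.6% of all 32851 windows, which were not matched for base composition. CACGTG was in 6 of the 46, against 6.02% of all windows. A match is a description of letters, not of binding.

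Lactate metabolism was mixed. Ldha, the lactate dehydrogenase subunit that favours lactate formation, was at 11.72, 11.89 and 11.44 in pancreas and 11.03, 11.39 and 11.70 in spleen. The tissues overlapped, with a log2 fold change of 0.31 ± 0.21 SE (95% interval -0.15 to 0.77). Ldhb, the subunit that favours pyruvate formation, had a lower mean in pancreas, at 6.64, 6.73 and 6.07 against 6.49, 6.79 and 7.15 in spleen (-0.33, 95% interval -0.83 to 0.18). Its second probe set, at means of 5.78 and 6.37 around the background of 6.0, gave -0.59. By that probe set the 3 pancreas arrays lay below the 3 spleen arrays, a pattern of 5.81% of all genes. Slc16a3, the lactate exporter MCT4 of glycolytic cells, was at 7.73, 7.71 and 7.21 in pancreas and 6.79, 7.13 and 7.28 in spleen. Pancreas arrays 1 and 2 were high and pancreas array 3 lay among the spleen arrays, with a log2 fold change of 0.49 ± 0.20 SE (limma adjusted p = 0.653). Slc16a1, the two-way monocarboxylate transporter MCT1, was at 0.17.

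All 4 genes of the pyruvate dehydrogenase step had lower means in pancreas, by -0.12 to -0.30, and none passed the test. Pdk1, the kinase that switches the complex off, was at 6.96, 6.96 and 6.59 in pancreas and 7.16, 7.16 and 7.04 in spleen. The 3 pancreas arrays lay below the 3 spleen arrays, a pattern of 5.81% of all genes, and the log2 fold change was -0.29 ± 0.17 SE (limma adjusted p = 0.975). The catalytic subunit genes Pdha1 and Pdhb were at -0.30 and -0.12 and Dlat, the acetyltransferase core, at -0.14. The mean over the step was 0.09, 0.04 and -0.45 on pancreas arrays 1 to 3 relative to each gene's mean and 0.07, 0.09 and 0.16 on spleen arrays 1 to 3. Pancreas array 3 stood far below the other 5, and without it the difference of the step was -0.04 in place of -0.21.

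The pentose phosphate genes Pgd (0.15), Tkt (0.31) and Taldo1 (0.02) encode an oxidative dehydrogenase and the transketolase and transaldolase of the non-oxidative arm. All 3 had higher means in pancreas, and every interval held 0. Their mean deviation was 0.22, 0.33 and -0.31 on pancreas arrays 1 to 3 and -0.40, -0.04 and 0.19 on spleen arrays 1 to 3, with wide overlap.

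Citrate cycle genes had no common direction. Of the 8, 5 had a higher and 3 a lower mean in pancreas, and the mean over the step differed by 0.07. Cs, citrate synthase, the entry of the cycle, was at 10.12, 10.50 and 10.11 in pancreas and 9.54, 10.28 and 10.28 in spleen. Only spleen array 1 stood apart, and without it the log2 fold change of 0.21 turned to -0.04. Idh3a, the catalytic subunit of the NAD-dependent isocitrate dehydrogenase, was at 8.68, 8.63 and 8.23 in pancreas and 7.72, 8.06 and 8.33 in spleen. It was the citrate cycle gene with the largest difference, at 0.48 ± 0.20 SE (limma adjusted p = 0.680), and pancreas array 3 lay below spleen array 3. Its NADP-dependent relative Idh2 was at -0.17, the oxoglutarate dehydrogenase gene Ogdh at -0.13 and the fumarase gene Fh1 at -0.09. Suclg1, a succinyl-CoA ligase subunit, was at 0.02, and the malate dehydrogenase genes Mdh1 and Mdh2 at 0.04 and 0.17.

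**Figure D4:**
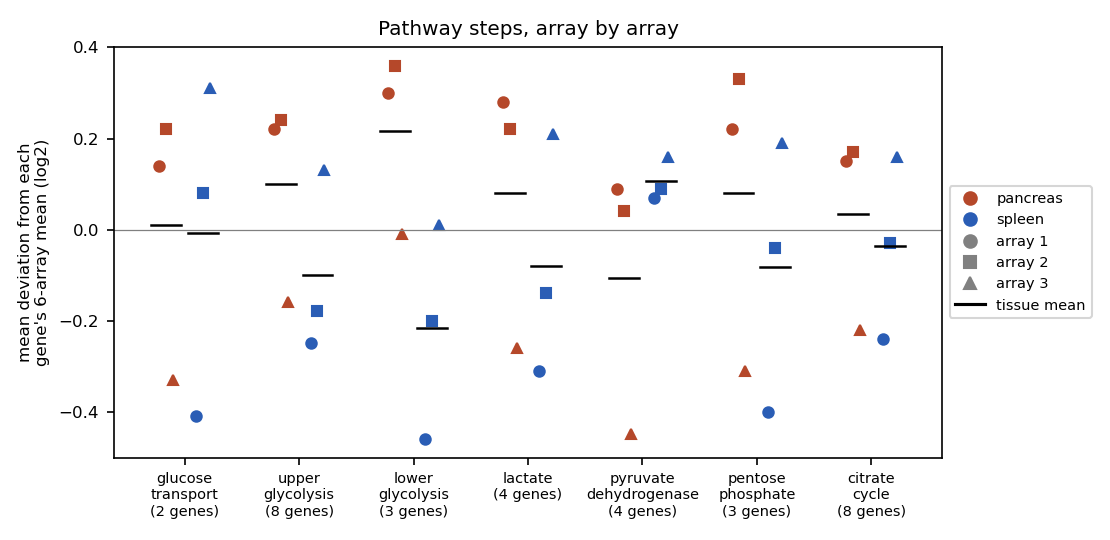
Mean deviation of the genes of each pathway step from their 6-array means (y axis, log2) on each array, with points for arrays and black lines for tissue means. Tissue means differ most for lower glycolysis (0.43), less for upper glycolysis (0.20) and in the other direction for pyruvate dehydrogenase (-0.21), and the arrays of the tissues overlap at every step.

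Array by array, lower glycolysis was the step with the largest difference between tissue means, at 0.43. Its deviations were 0.30, 0.36 and -0.01 on pancreas arrays 1 to 3 and -0.46, -0.20 and 0.01 on spleen arrays 1 to 3, so that the third arrays of the tissues met. Of the 11 measured glycolytic enzymes, 10 had a higher mean in pancreas, counting Hk2 (below background) and Pfkm (0.00), with a median of 0.25. Of the 12 genes of the pyruvate dehydrogenase step and the citrate cycle, 5 did, with a median of -0.11. These 12 count Pdk1, the kinase that switches the complex off. Over all genes 49.8% had a higher mean in pancreas. The difference between these groups of genes was not tested.

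Within an array, the ratio of 2 related genes is free of shifts that both share. Such ratios show unequal change only, since levels of different probe sets cannot be compared. Of the 6 pairs chosen, Hk2 to Hk1 is not read, since Hk2 was below background. For 4 of the other 5, the ratios of the 3 pancreas arrays did not overlap with those of the 3 spleen arrays. This held for 18.0% of all pairs of genes above background and for 160 of the 465 pairs (34.4%) among the 31 listed genes above background on all arrays. The log2 ratio of Ldhb to Ldha was -5.08, -5.16 and -5.37 in pancreas and -4.54, -4.60 and -4.55 in spleen. The spleen arrays were nearly equal and every pancreas array was lower, with a difference of -0.64 between means of -5.20 ± 0.15 and -4.56 ± 0.03 (SD, n = 3; two-sided exact permutation p = 0.10, adjusted over 6 pairs 0.15). With 3 arrays against 3, 0.10 is the smallest p this test can give.

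The ratio of Pfkp to Pfkl was 0.76, 0.81 and 0.98 in pancreas and 1.29, 1.31 and 1.14 in spleen, a difference of -0.39. That of Aldoc to Aldoa was -3.50, -3.51 and -3.63 against -3.07, -3.27 and -3.20, a difference of -0.37. The ratio of the glucose transporter genes Slc2a3 to Slc2a1 was 0.18, -0.13 and 0.11 against 0.45, 0.37 and 0.30, a difference of -0.32. Each of these also reached the smallest possible exact permutation p of 0.10 (adjusted 0.15). In these 4 pairs the ratios of the tissues were apart although each single gene overlapped between them by the probe set used. The second probe set of Ldhb, near background, did not overlap. The outcome depended on how the arrays were rescaled. With quantile normalization all 4 stayed apart, at -0.30 for Slc2a3 to Slc2a1, -0.36 for Pfkp to Pfkl, -0.38 for Aldoc to Aldoa and -0.64 for Ldhb to Ldha. With arrays scaled to a common interquartile range only Slc2a3 to Slc2a1 stayed apart (-0.32). There Pfkp to Pfkl (-0.33, exact permutation p = 0.20), Aldoc to Aldoa (-0.56, p = 0.30) and Ldhb to Ldha (-0.93, p = 0.20) overlapped between tissues. Slc16a3 to Slc16a1 (0.31, exact permutation p = 0.30) overlapped without that scaling too.

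**Figure D5:**
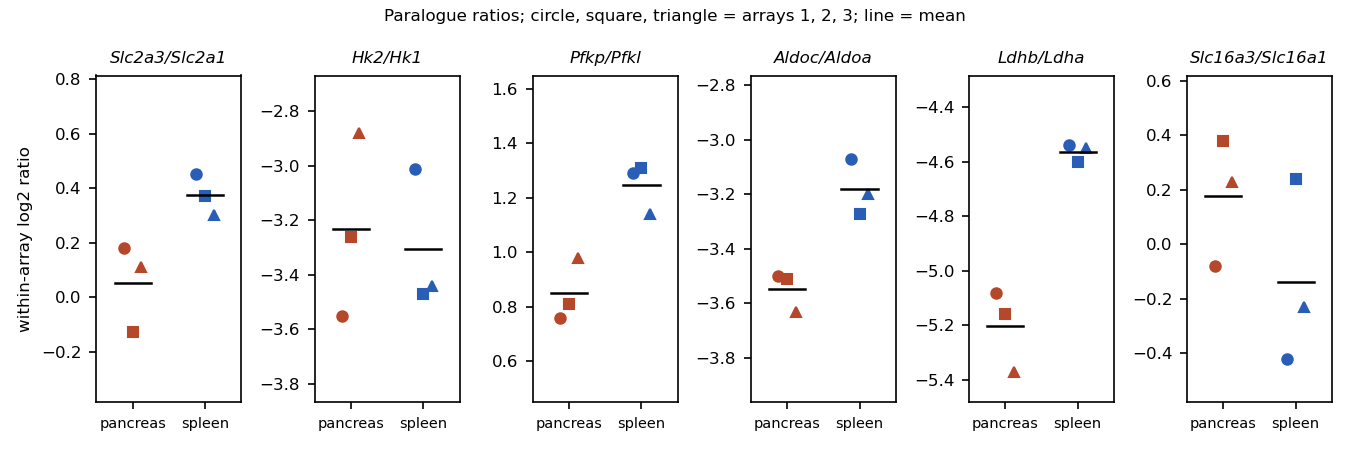
Within-array log2 ratio (y axis) of 6 pairs of related genes, with 1 point for each array (circle, square and triangle for arrays 1, 2 and 3) and a line at the mean of 3 arrays, each panel spanning the same height. Pancreas and spleen points do not overlap for Slc2a3/Slc2a1, Pfkp/Pfkl, Aldoc/Aldoa and Ldhb/Ldha. All 4 stayed apart with quantile normalization, and only Slc2a3/Slc2a1 with arrays scaled to a common interquartile range. The Hk2/Hk1 panel rests on a gene below background.

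Further genes of these pathways and their regulators were a list of 89, of which 83 were measured. None passed the adjusted test (limma), and 2 were higher and 3 lower at an unadjusted p under 0.05, against 3.20% and 3.64% of all genes. Their median log2 fold change was -0.01. Txnip, which encodes a protein that restrains glucose uptake by removing transporters from the cell surface, had the largest difference. It was at 11.22, 11.11 and 10.57 in pancreas and 11.85, 11.60 and 11.98 in spleen. All pancreas arrays lay below all spleen arrays (-0.84 ± 0.21 SE, limma adjusted p = 0.136, and -0.78 with adjusted p = 0.0213 with the interquartile range as a covariate). Me2, the mitochondrial malic enzyme gene (-0.52), Pdk2, a pyruvate dehydrogenase kinase gene (-0.47), and Rptor, the mTORC1 scaffold gene (-0.46), had lower means in pancreas. Neither Me2 nor Pdk2 overlapped between tissues, and 5.81% of all genes lay lower in pancreas without overlap. With the interquartile range as a covariate their limma adjusted p was 0.08 and 0.134. Txnip and these genes were named for their small p.

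In the other direction Egln3, a prolyl hydroxylase that marks hypoxia-inducible factor for decay and is itself induced by it, was at 8.53, 9.08 and 8.58 in pancreas and 8.0, 8.41 and 8.15 in spleen. The tissues did not overlap, a pattern of 4.57% of all genes in this direction. The log2 fold change was 0.54 ± 0.20 SE (limma adjusted p = 0.483, and 0.157 with the interquartile range as a covariate). Got1, the cytosolic aspartate aminotransferase of the malate-aspartate shuttle, was at 0.50 with no overlap (limma adjusted p = 0.559, and 0.0345 with the interquartile range as a covariate). Its mitochondrial partner Got2 was at 0.29, and Hif1a, the hypoxia-inducible subunit gene itself, at 0.22. Both overlapped between tissues. Of the 15 upstream regulators, 9 had a lower mean in pancreas and 6 a higher one.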

How the data were processed

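RNA of 6 sorted Treg cell samples, 3 from pancreas and 3 from spleen, was amplified per the labels (Ambion WT Expression Kit). The authors deposited 1 linear intensity per probe set and array. The submitters' processing notes name RMA and Affymetrix Power Tools, with versions and genome build not given in the sources used here. RMA corrects background, normalises and summarises probes. The deposited intensities were taken to log2. Of 24922 probe sets, 21425 name exactly 1 gene, 1399 several and 2098 none. Of several probe sets of a gene, that of highest 6-array mean was used. Background was the 95th percentile of mean log2 values over 1194 olfactory and vomeronasal receptor genes.

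Tissues were compared with limma 3.58.1 (R 4.3.3, lmFit and eBayes, no covariates, two-sided, Benjamini-Hochberg over all genes). The fit was also run on simulated data with noise independent between genes. Real levels varied together within an array, so that run does not show how the test behaves here. Per-array values were given for members with an unadjusted p under 0.05, arrays that do not overlap or a log2 fold change of 0.5 or more in size, and for Slc2a1, Hk2, Pfkp, Gapdh, Ldha, Pdk1, G6pdx and Cs where measured, and were added for Ldhb, chosen after its values were seen. Of the other pathway genes, up to 4 in each direction with the smallest p among those above background were named. Members, lists and pairs were chosen with earlier results of these data known. Promoters came from the RefSeq table of GRCm38.p6. Depth does not apply to arrays, and the number of arrays limits the precision. Alternatives covered normalization, background, probe sets, variance, weights, the replicate number and each array left out.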

Additional observations from a re-analysis of the deposited data

How the results depend on the processing

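Over all genes the test called 134. This became 212 with quantile normalization, 64 with arrays centred on their median, 66 with arrays scaled to a common interquartile range, 3 with values under background raised to it, 7206 with array weights and 544 with the interquartile range as a covariate, the last chosen after seeing the data. Of the 32 genes, 0 were called higher, except 17 with array weights and 4 with that covariate, and 0 were called lower in every fit. The 5 higher at an unadjusted p became 2 with centred arrays and with raised background, 21 with weights and 9 with the covariate, and 1 was lower with weights. Of the 83 other pathway genes, 33 were called with weights, where 7206 of all 19752 were. With the covariate 2 of the 83 were called, where 544 of all 19752 were. The 5 at an unadjusted p became 43 and 8. The share of all genes at an unadjusted p is given only for the fit without any of these changes. The cause was not tested.

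With each array left out, genes called ranged from 64 to 262, those of the 32 at an unadjusted p from 1 to 8 higher and from 0 to 1 lower, and other pathway genes from 3 to 13. The direction of Pfkp (-0.31 to 0.06), Slc2a1 (-0.05 to 0.36) and Cs (-0.04 to 0.34) turned in some of these fits. The computed ratio of Hk2 to Hk1 has no direction to read, as Hk2 is below background. It was -0.09 to 0.24 with each array left out, -0.01 with quantile normalization, -0.07 with a common interquartile range and -0.13 with raised background. Step means moved too when an array was left out: glucose transport ran from -0.19 to 0.19, upper glycolysis from 0.12 to 0.33, lower glycolysis from 0.31 to 0.55, lactate from 0.04 to 0.33, pyruvate dehydrogenase from -0.31 to -0.04, pentose phosphate from 0.00 to 0.35 and the citrate cycle from -0.03 to 0.20. The low end came without spleen array 1, except without pancreas array 1 for pyruvate dehydrogenase, and the high end without pancreas array 3, except without spleen array 3 for lower glycolysis.

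The labels do not say whether same-numbered arrays share mice or a sorting day. Deviations from the tissue means correlated at -0.18, 0.05 and -0.63 between same-numbered arrays. Between the narrowest arrays, pancreas 3 and spleen 1, they correlated at 0.48. Since array width enters these values, they cannot show whether the arrays are paired. With the replicate number as a block, 132 genes and 0 of the 32 were called, and 1 of the 32 and 3 other pathway genes had an unadjusted p under 0.05. Intensities near background, as for Hk2 and Ldhb, limit what can be seen.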
